A study of Mus musculus with 12 samples.

Results

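The transcripts described here are those of 9 genes that steer lymphocytes into, within and out of lymph nodes: Cd69, S1pr1, Klf2, Ccr7, Ccr4, Ccr8, Cxcr4, Cxcr6 and Gpr183. They were chosen by name, with earlier results of these data known, out of 29542 genes summed from the deposited transcripts. All 9 were among the 14431 genes that passed the filter on low counts. The source of the RNA was ILC2s (group 2 innate lymphoid cells, which make type 2 cytokines and carry no antigen receptor). They were sorted from the skin-draining nodes of C57BL6 mixed bone-marrow chimeras. The CD45.1 hosts had been given 950 cGy and, 6 hours later, equal parts of CD45.2 Rag1-/- marrow and CD90.1 wild-type (WT) marrow. All chimeras received IL-33, an alarmin on which ILC2s proliferate, for 7 days before harvest, 30 ng into each cheek and 240 ng into the peritoneum each day. The 4 groups of 3 libraries are Rag1 KO cells at 20 weeks after transplant, WT cells at 20 weeks, Rag1 KO cells at 8 weeks and WT cells at 8 weeks. The cells are an expanded, IL-33-elicited population of a chimera in which both genotypes share the host, so they model neither resting ILC2s nor an intact Rag1-deficient mouse. Whether the 3 libraries of a group are 3 separate animals is not given, and the p-values then measure the spread between libraries, which may be technical.

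CD69 is a membrane lectin that appears on lymphocytes soon after activation. It binds the sphingosine 1-phosphate receptor S1PR1 and takes it off the surface, which keeps the cell in the lymph node, since S1PR1 guides lymphocytes along the lipid gradient into efferent lymph. The transcription factor KLF2 drives transcription of S1pr1 in T cells and is turned down there on activation. Entry and position are set by other receptors: CCR7 reads CCL19 and CCL21, GPR183 reads oxysterols, CXCR4 reads CXCL12, CCR4 and CCR8 read chemokines of inflamed skin, and CXCR6 reads CXCL16.

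Start-site windows of 6 of the 9 genes were matched by symbol in RefSeq (GRCm38.p6), each from 250 bases before to 50 bases after the gene's start. Cd69, S1pr1 and Ccr7 were not matched. The windows of Klf2 and Ccr4 are printed because Klf2 is the regulator to which Cd69 is related below and Ccr4 is the other gene whose libraries did not overlap between the times. Capitals mark matches, on either strand, to 3 motifs, an AP-1 site (TGAGTCA), a MEF2 site, whose letters are the run of 10 capitals in the Klf2 window, and the GC box (GGGCGGGG). The matches do not overlap here. The Klf2 window lies at chr8:72318812-72319111 on the plus strand and the Ccr4 window at chr9:114496495-114496794 on the minus strand.
Klf2: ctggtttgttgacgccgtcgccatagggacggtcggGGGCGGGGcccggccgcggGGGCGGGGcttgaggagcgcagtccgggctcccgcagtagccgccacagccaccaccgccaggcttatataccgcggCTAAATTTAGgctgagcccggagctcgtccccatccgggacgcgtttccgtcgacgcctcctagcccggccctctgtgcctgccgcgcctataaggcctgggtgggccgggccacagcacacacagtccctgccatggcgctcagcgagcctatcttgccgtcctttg
Ccr4: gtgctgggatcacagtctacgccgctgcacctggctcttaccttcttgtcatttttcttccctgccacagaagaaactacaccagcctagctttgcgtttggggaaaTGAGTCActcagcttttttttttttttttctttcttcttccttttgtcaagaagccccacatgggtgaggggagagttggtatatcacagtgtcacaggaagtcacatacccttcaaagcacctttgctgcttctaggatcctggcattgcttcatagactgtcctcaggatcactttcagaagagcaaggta
Klf2 holds 1 MEF2 match that begins 118 bases before the start, and GC boxes that begin 214 and 195 bases before it. Of 32851 windows of the same length, 13 (0.0396%) hold this MEF2 sequence and 17.6% a GC box. Only the exact letters given for each motif were searched. The 0.0396% is thus the share of 1 spelling, the one in the Klf2 window, and not of MEF2 sites in general. Ccr4 holds 1 AP-1 match that begins 143 bases before the start, a sequence found in 5.20% of windows. Cxcr4 holds a GC box 97 bases before its start (written CCCCGCCC on its strand), while the windows of Ccr8, Cxcr6 and Gpr183 hold none of the 3 motifs. The starts are those of RefSeq, and that of Ccr4 lies inside the longer GENCODE span given for the gene further on, whose own start is at 114504916. A match describes letters in a window and shows no binding.

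Libraries held 11433625 to 32529806 estimated reads. In principal components, 2 libraries stood apart, both of 8 weeks: WT replicate 2 on the first component (28.1% of the variance) and the Rag1 KO-labelled replicate 3 on the second (18.8%), in which 10 genes took 24.5% of the reads, against 8.85% to 15.03% in the others. Rag1, whose product cuts antigen receptor genes, had few reads, all of them in libraries labelled Rag1 KO. It had 13.2, 18.4 and 10.8 estimated reads in the Rag1 KO-labelled libraries of 20 weeks and 0, 14.5 and 12.2 in those of 8 weeks, but 0 in all 6 WT libraries. The labels do not give the deleted part of the gene, so these reads cannot be placed inside or outside it. The libraries are therefore called KO-labelled throughout, and a genotype direction holds only as far as the labels do. Thy1, which encodes the donor mark CD90, parted the genotypes: it lay at 16.8 to 37.8 CPM in KO-labelled and at 2.94 to 5.68 CPM in WT libraries. ILC2 genes were abundant in all 12 libraries, with Gata3 at 554 to 1357 CPM and Il1rl1 at 167 to 336 CPM, while Cd3e did not exceed 3.76 CPM and Itgax 0.462 CPM. Other genes of the T cell and dendritic cell lists were high: Trbc1 lay at 229 to 481 CPM, Trbc2 at 240 to 510.0 CPM, Cd3g at 24.5 to 66.0 CPM and the MHC class II gene H2-Aa at 776 to 2061 CPM. No date of harvest or sequencing is given in the sources used here, so a batch that followed the weeks after transplant and those weeks themselves cannot be told apart. The file headers record 24 threads for 4 of the 6 libraries of 20 weeks (all 3 KO-labelled) and for 2 of the 6 of 8 weeks.

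Per transcript length, the means of the 9 genes spanned 12.5 to 1042 TPM. Values of TPM (transcripts scaled for length to a fixed library sum) are used wherever genes are compared with each other. Cxcr6 was the most abundant at 1042 ± 211 TPM (SD, n = 12), with 142 of the 14431 tested genes above it. It was the highest of the 9 in every library. Cd69 (143 ± 79.2 TPM) and Ccr8 (139 ± 40.5 TPM) came next, and their order differed by time: Ccr8 was above Cd69 in all 6 libraries of 20 weeks without overlap, while at 8 weeks the ranges overlapped. S1pr1 followed at 71.3 ± 8.79 TPM and Gpr183 at 44.1 ± 9.21 TPM. Ccr4 (22.2 ± 5.31 TPM), Klf2 (17.2 ± 3.23 TPM), Cxcr4 (14.0 ± 6.47 TPM) and Ccr7 (12.5 ± 3.30 TPM) closed the order, and their ranges overlapped. The place of Cd69 depended on the time: it had rank 2 in both groups of 8 weeks, at 199 ± 55.9 TPM in KO-labelled and 220 ± 64.8 TPM in WT cells. At 20 weeks it had rank 4 in KO-labelled cells (68.6 ± 7.86 TPM, next to S1pr1 at 78.8 ± 9.89 TPM) and rank 3 in WT cells (85.2 ± 13.1 TPM, next to S1pr1 at 71.8 ± 9.03 TPM), n = 3 each. Cd69 overlapped S1pr1 in both groups of 20 weeks, and at 8 weeks it lay above all values of S1pr1 (57.3 to 76.6 TPM).

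**Figure D1:**
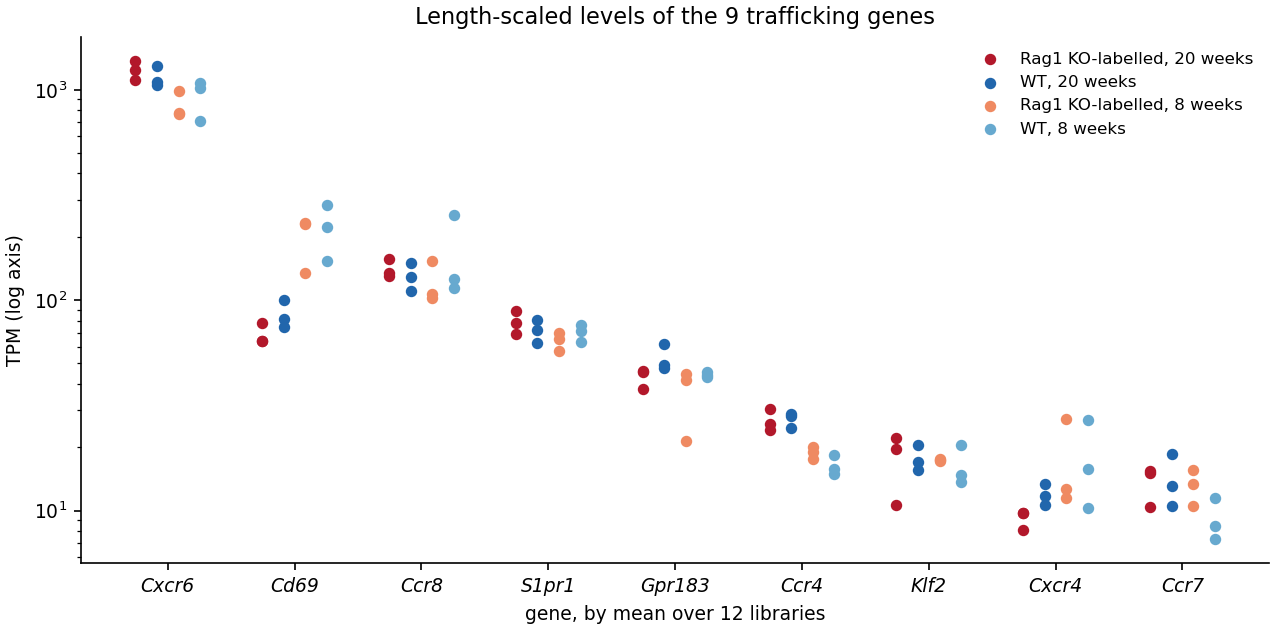
TPM (log axis) of the 9 trafficking genes, ordered by their mean over 12 libraries, with 1 point for each library and 1 colour for each group of 3. Cxcr6 lies near 1042 TPM, and Cd69 is the gene whose 2 times part most, at 63.9 to 99.9 TPM at 20 weeks and 135 to 283 TPM at 8 weeks.

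Cd69 (ENSMUSG00000030156; chromosome 6, 129267325 to 129275436, minus strand, GRCm38) was the member that differed by time. In CPM (counts scaled to library size with TMM factors), used within a gene only, it lay at 70.3, 73.2 and 93.0 in KO-labelled cells of 20 weeks and at 87.7, 91.9 and 128 in WT cells of 20 weeks. It lay at 324, 316 and 186 CPM in KO-labelled cells of 8 weeks and at 296, 223 and 381 CPM in WT cells of 8 weeks. All 6 libraries of 20 weeks were below all 6 of 8 weeks, and the lowest of 8 weeks was the KO-labelled replicate 3 that stood apart. Averaged over the genotypes, the log2 fold change of 20 over 8 weeks was -1.68 (SE 0.19; edgeR quasi-likelihood test, Benjamini-Hochberg adjusted p = 0.00111). Without both libraries that stood apart it was -1.87 (edgeR, adjusted p = 0.000119). In RNA from a pool of sorted cells, fewer Cd69-expressing cells and less Cd69 RNA in each cell cannot be told apart. Genes are called here where the adjusted p is under 0.05. Of the 9 genes, Cd69 alone was called by edgeR in this average, 1 of 9, against 2.90% of all tested genes (1.93% lower at 20 weeks). DESeq2 called 2 of 9, Cd69 and Ccr4, against 8.52% of all genes. At an unadjusted p under 0.05 there were 3 of 9, Cd69, Ccr4 and Cxcr4, against 18.6%. Values of 2 members, Cd69 and Ccr4, did not overlap between the times, against 4.08% of all genes.

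The fall in Cd69 at 20 weeks was present in both genotypes. In KO-labelled cells Cd69 averaged 78.8 ± 12.4 CPM at 20 weeks and 275 ± 77.5 CPM at 8 weeks (SD, n = 3 each), a log2 fold change of -1.80 (SE 0.27; edgeR, adjusted p = 0.0378). In WT cells it averaged 103 ± 22.1 CPM at 20 weeks and 300 ± 79.3 CPM at 8 weeks, a log2 fold change of -1.55 (SE 0.27; edgeR, adjusted p = 0.0264). The test of the difference between these changes gave -0.25 (SE 0.38, 95% interval -1.07 to 0.56; edgeR interaction, adjusted p = 1). Cd69 was the 1 member called in each genotype, against 0.0624% of all genes in KO-labelled cells, all of them lower, and 0.513% in WT cells (0.312% lower). DESeq2 called 1 of 9 in KO-labelled cells (1.04% of all genes) and 2 of 9, Cd69 and Ccr4, in WT cells (3.46%). Within 1 genotype the call rested on few libraries, and in neither genotype was it kept with the replicate number as a block. In KO-labelled cells Cd69 was no longer called when any 1 of 8 of the 12 libraries was left out, with edgeR adjusted p of 0.393, 0.402 and 0.181 without KO-labelled replicates 1, 2 and 3 of 20 weeks and 0.0752 and 0.0820 without WT replicates 1 and 2 of 20 weeks. Leaving out KO-labelled replicates 1 and 2 of 8 weeks gave edgeR adjusted p of 0.171 and 0.226, and leaving out WT replicate 1 of 8 weeks gave 0.105. In WT cells the call of Cd69 was lost without WT replicates 1, 2 and 3 of 20 weeks (edgeR, adjusted p = 0.148, 0.155 and 0.0573), KO-labelled replicate 2 of 20 weeks (0.0556) and WT replicate 1 of 8 weeks (0.0932). Over the 12 libraries left out in turn, the log2 fold change of Cd69 stayed between -2.01 and -1.68 in KO-labelled cells and between -1.75 and -1.35 in WT cells. Among the libraries of 8 threads, 2 a group, the change of Cd69 in WT cells was -1.53 (SE 0.37; edgeR, adjusted p = 0.539).

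**Figure D2:**
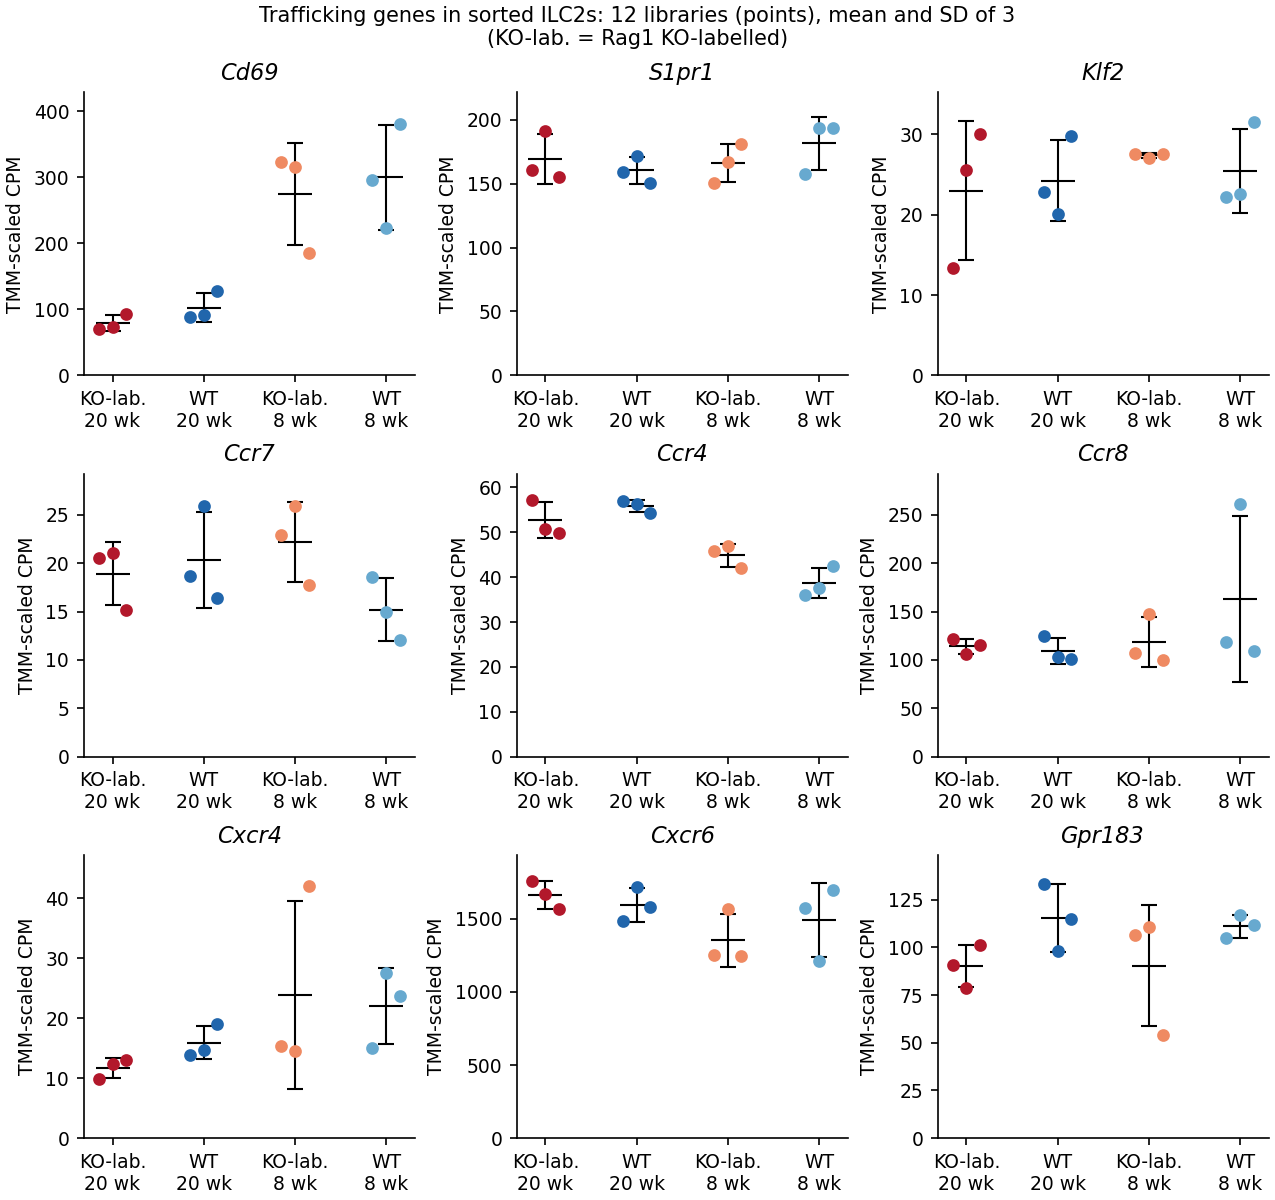
TMM-scaled CPM of each of the 9 trafficking genes in 12 libraries (points) by group, with the mean and SD of 3 libraries. Cd69 lies at 70.3 to 128 CPM at 20 weeks and at 186 to 381 CPM at 8 weeks, whereas S1pr1 lies between 150 and 194 CPM in all 12 libraries.

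Markers of other cell types were read beside Cd69, because activated T, B and NK cells also carry it. The summed CPM of 10 B cell genes ranged between 164 and 319 at 20 weeks and between 172 and 586 at 8 weeks. The sum of 8 NK cell genes lay between 47.4 and 75.9 CPM in the libraries of 20 weeks and between 71.9 and 247 CPM in those of 8 weeks, mostly from Gzma, which encodes granzyme A. Both sums overlapped between the times. The 11 T cell genes summed to 637 to 925 CPM at 20 weeks and 512 to 887 CPM at 8 weeks, mostly from the constant segments Trbc1 and Trbc2. Of the lists for other cell types, 1 gene was called, the B cell gene Cd79b, against 1.93% of all genes lower at 20 weeks. Cd79b, which encodes an antigen receptor chain, fell to 86.8 ± 13.5 CPM at 20 weeks, against 147 ± 31.3 CPM at 8 weeks (edgeR, adjusted p = 0.0240). When a library was left out, Cd79b was called in 4 of 12 fits, those without KO-labelled replicate 1 or 3 or WT replicate 2 or 3 of 8 weeks. Averaged over the genotypes, all 7 tested B cell genes had a log2 fold change below 0 (median -1.08, against 0.02 over all genes). The genotypes differed here: all 7 were below 0 in KO-labelled cells (median -2.21), but 4 of 7 in WT cells (median -0.19). In the average, 4 of the 7 had an unadjusted p under 0.05, against 18.6% of all genes, and DESeq2 called 3, against 8.52%. The 7 tested genes included Cd22 (-1.62; edgeR, adjusted p = 0.0580), Cd79a (-1.74; edgeR, adjusted p = 0.166), Igkc (-1.08) and Ighm (-0.09). All 5 tested NK cell genes were also below 0 in the average (median -0.42). By genotype, 2 of 5 were below 0 in KO-labelled cells (median 0.04) and all 5 in WT cells (median -0.90). In the average, 1 of the 5 had an unadjusted p under 0.05, Gzma (-1.27; edgeR, adjusted p = 0.107), against 18.6% of all genes, and DESeq2 called 1, against 8.52%. The B cell factor gene Pax5 was at 0 in 10 of 12 libraries, the T cell gene Cd5 in 7 and the NK cell gene Eomes in 9. The 12 genes of dendritic cells and macrophages summed to 932 to 1317 CPM at 20 weeks and 812 to 2090 CPM at 8 weeks, nearly all H2-Aa, with Clec9a at 0 in all 12. Neutrophil and mast cell genes summed to 80.4 to 109 CPM at 20 weeks and 73.0 to 114 CPM at 8 weeks, mostly Kit, with S100a9 and Ly6g at 0 in all 12. Genes of stroma and endothelium summed to 123 to 163 CPM at 20 weeks and 118 to 160 CPM at 8 weeks, mostly Pecam1, with Lyve1 and Prox1 at 0 in all 12. ILC2 genes summed to 4224 to 4613 CPM at 20 weeks and 3425 to 4410 CPM at 8 weeks. Of the 10, 5 had a log2 fold change above 0, among them Il1rl1 (0.47) and Il7r (0.60), and 5 below (median 0.13). An unadjusted p under 0.05 was found for 5 (18.6% of all genes), and DESeq2 called 4 (8.52%). In edgeR 2 were called, both lower at 20 weeks, against 1.93% of all genes. They were the cytokine gene Il13 (log2 -0.98; edgeR, adjusted p = 0.0439) and the growth factor gene Areg (-1.57; edgeR, adjusted p = 0.0163). Il13 was called in 3 of 12 fits that leave out a library (those without WT replicate 2 or 3 or KO-labelled replicate 3 of 8 weeks), and Areg in 10 (not without KO-labelled replicate 2 or 3 of 20 weeks). The part of these cells in the Cd69 values was not tested.

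S1pr1 (ENSMUSG00000045092; chromosome 3, 115710433 to 115715072, minus strand), the egress receptor that CD69 binds, was even across the study. It lay at 161, 191 and 156 CPM in KO-labelled cells of 20 weeks and at 160, 172 and 150 CPM in WT cells of 20 weeks. It lay at 151, 167 and 181 CPM in KO-labelled cells of 8 weeks and at 158, 194 and 194 CPM in WT cells of 8 weeks. The groups overlapped throughout, and over 12 libraries the SD was 16.5 CPM on a mean of 170 CPM. The log2 fold change of 20 over 8 weeks was -0.08 (SE 0.12, 95% interval -0.33 to 0.17; edgeR, adjusted p = 0.770). On the TPM scale the means lay the other way, 75.3 ± 9.29 at 20 weeks and 67.3 ± 6.74 at 8 weeks, so no direction is given for S1pr1.

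Klf2 (ENSMUSG00000055148; chromosome 8, 72319033 to 72321656, plus strand) was a low transcript next to S1pr1, at 17.2 against 71.3 TPM over all libraries. It lay at 13.3, 25.6 and 30.1 CPM in KO-labelled cells of 20 weeks and at 22.8, 20.1 and 29.9 CPM in WT cells of 20 weeks. It lay at 27.6, 27.1 and 27.6 CPM in KO-labelled cells of 8 weeks and at 22.2, 22.6 and 31.5 CPM in WT cells of 8 weeks. The lowest value was that of KO-labelled replicate 1 of 20 weeks, and otherwise the times and genotypes lay over each other. Its log2 fold change by time was -0.16 (SE 0.20, 95% interval -0.60 to 0.27; edgeR, adjusted p = 0.716). In TPM the means of Klf2 lay the other way, 17.55 ± 4.11 at 20 weeks and 16.85 ± 2.41 at 8 weeks, so no direction is given for Klf2 either. The intervals of S1pr1 and Klf2 lie above the change of Cd69, whose own interval ended at -1.26.

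Because Cd69 changed while S1pr1 and Klf2 were not called, the ratio of Cd69 to each was taken within every library from TPM. For each S1pr1 transcript there were 0.821, 0.718 and 1.12 Cd69 transcripts in KO-labelled cells of 20 weeks and 1.03, 1.00 and 1.60 in WT cells of 20 weeks. At 8 weeks the ratio was 4.03, 3.55 and 1.92 in KO-labelled cells and 3.52, 2.16 and 3.70 in WT cells. No library of 20 weeks reached the lowest ratio of 8 weeks. The log2 ratio averaged 0.02 ± 0.40 at 20 weeks and 1.60 ± 0.45 at 8 weeks (SD, n = 6 each), a difference of -1.58. Under an exact two-sided permutation of time within genotype, p was 0.005, the smallest that its 400 arrangements allow (0.005 after adjustment over the 2 ratios). For each Klf2 transcript there were 6.02, 3.26 and 3.53 Cd69 transcripts in KO-labelled cells and 4.39, 5.22 and 4.88 in WT cells at 20 weeks. At 8 weeks there were 13.4, 13.3 and 7.67 in KO-labelled cells and 15.2, 11.2 and 13.8 in WT cells, again all above those of 20 weeks. The log2 ratio of Cd69 to Klf2 averaged 2.15 ± 0.34 at 20 weeks and 3.60 ± 0.35 at 8 weeks, a difference of -1.45 (exact permutation p = 0.005, n = 6 each). Both ratios follow from the same change in Cd69 and are no second observation of it. They were chosen after that change was seen, so their p-values describe it and are no further test.

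Within a time, no relation of Cd69 to either gene passed its test. Since Cd69 parts the libraries into 2 clusters by time, no coefficient over all 12 is given for these pairs, and 6 relations were computed, each over the 6 libraries of 1 time on log2 CPM. Cd69 and S1pr1 gave a Pearson r of -0.62 at 20 weeks (Spearman rho -0.71; exact permutation p = 0.186 and 0.136, n = 6) and -0.28 at 8 weeks (rho -0.26; exact permutation p = 0.557 and 0.658, n = 6). Leaving out the 2 libraries farthest from the median of Cd69 moved r to -0.86 at 20 weeks and to 0.84 at 8 weeks. The sign at 8 weeks thus rested on those 2 libraries, which were the 2 that stood apart. Cd69 and Klf2 gave r of 0.64 at 20 weeks (rho 0.71; exact permutation p = 0.186 and 0.136, n = 6) and 0.40 at 8 weeks (rho 0.37; exact permutation p = 0.433 and 0.497, n = 6). Without the same libraries these became -0.09 at 20 weeks and 0.92 at 8 weeks. S1pr1 and Klf2 gave r of -0.12 at 20 weeks and 0.19 at 8 weeks (exact permutation p = 0.808 and 0.665, n = 6), and -0.78 and 0.94 without the 2 farthest libraries of each time. None of the 6 relations passed adjustment (Benjamini-Hochberg p of 0.558 or more for r, 0.408 or more for rho).

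**Figure D3:**
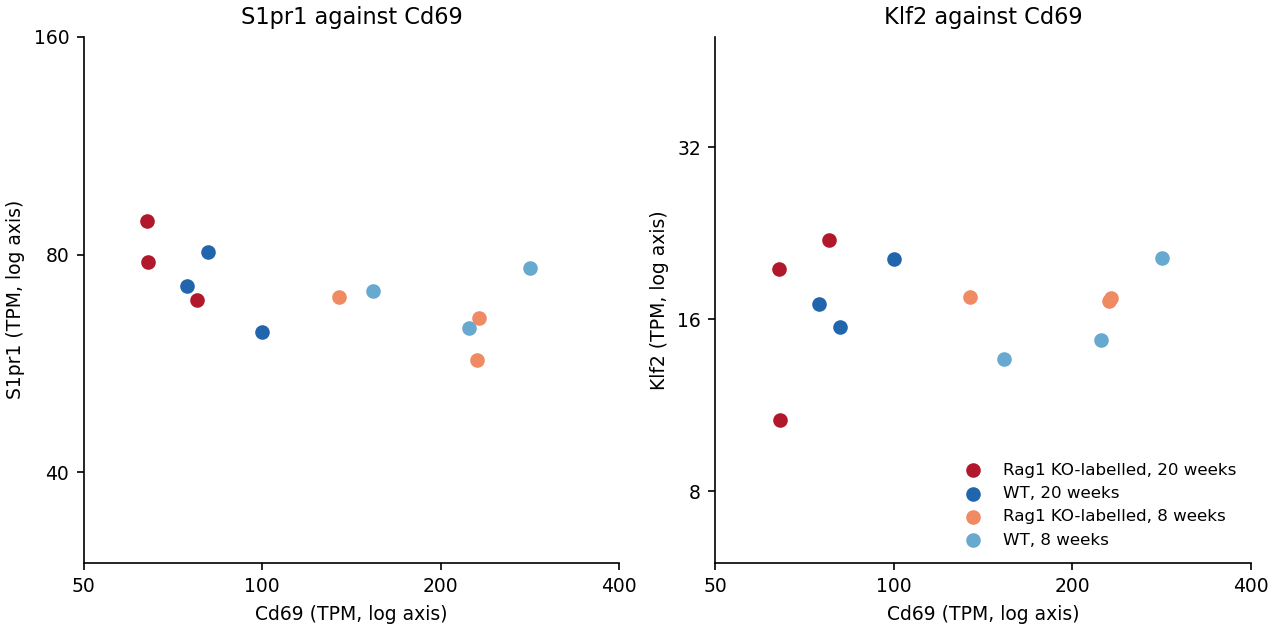
TPM of S1pr1 (left) and Klf2 (right) against TPM of Cd69 (log axes), 1 point for each of 12 libraries. The libraries of 20 weeks lie left of those of 8 weeks along Cd69, while S1pr1 stays between 57.3 and 88.9 TPM and Klf2 between 10.7 and 22.0 TPM.

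Over the 12 libraries, the gene whose log2 CPM was most like that of Cd69 was Rgs2 (Pearson r = 0.98), which encodes a brake on G protein signalling, at 95.3 ± 12.2 CPM at 20 weeks and 234 ± 42.3 CPM at 8 weeks (n = 6 each). Next came Psma2 (0.97) and Psma5 (0.96), which encode subunits of the proteasome core. As the libraries share their times, any gene that differs between the times as Cd69 does scores high here, and these values are descriptions. The genes most like S1pr1 were Npl (0.87), Add3 (0.84) and Chst10 (0.82), and those most like Klf2 were Lrrc75b (0.82), Tpbgl (0.81) and Gm5121 (0.81). Of these, Npl, Tpbgl and Gm5121 had few reads, with means of 1.15, 0.536 and 0.624 CPM at 20 weeks and 1.62, 0.748 and 0.867 CPM at 8 weeks.

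The receptors that bring cells into the node and place them there did not pass the test by time. Ccr7 (ENSMUSG00000037944; chromosome 11, 99144196 to 99155077, minus strand), the receptor for lymph node entry, lay at 20.5, 21.1 and 15.2 CPM in KO-labelled and 18.7, 25.9 and 16.4 CPM in WT libraries of 20 weeks. At 8 weeks it lay at 22.9, 25.9 and 17.8 CPM in KO-labelled and 18.5, 14.96 and 12.1 CPM in WT libraries. The WT libraries of 8 weeks held the 2 lowest values of the 12, and the groups overlapped. Its log2 fold change by time was 0.10 (SE 0.18; edgeR, adjusted p = 0.821).

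Gpr183 (ENSMUSG00000051212; chromosome 14, 121952551 to 121965195, minus strand), the oxysterol receptor that places cells at follicle borders, lay at 90.8, 78.7 and 101 CPM in KO-labelled and 133, 98.0 and 115 CPM in WT libraries of 20 weeks. At 8 weeks it lay at 107, 111 and 54.0 CPM in KO-labelled and 105, 117 and 112 CPM in WT libraries. The lowest value belonged to the KO-labelled replicate 3 that stood apart. The log2 fold change by time was 0.02 (SE 0.17; edgeR, adjusted p = 0.960). Gpr183 overlaps Ubac2, a gene of the opposite strand, and the strand of the libraries is not stated, so reads of the pair may not be told apart where they overlap.

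Cxcr4 (ENSMUSG00000045382; chromosome 1, 128588199 to 128592293, minus strand), the receptor that holds cells near CXCL12, lay at 9.85, 12.4 and 13.0 CPM in KO-labelled and 13.8, 14.8 and 19.0 CPM in WT libraries of 20 weeks. At 8 weeks it lay at 15.3, 14.4 and 42.0 CPM in KO-labelled and 15.02, 27.4 and 23.6 CPM in WT libraries. The highest values of the 12 came from the 2 libraries that stood apart, KO-labelled replicate 3 and WT replicate 2 of 8 weeks. The log2 fold change by time was -0.75 (SE 0.27, unadjusted p = 0.0173; edgeR, adjusted p = 0.160). Without both of those libraries it was -0.31 (edgeR, adjusted p = 0.309), and without KO-labelled replicate 3 alone -0.41. Within KO-labelled cells the change of Cxcr4 was -1.02 (edgeR, adjusted p = 0.519), and -0.34 without that replicate (edgeR, adjusted p = 0.728). Cxcr4 was also the only member with 2 transcripts in the files, of 1805 and 902 bases. The shorter one took 73.2% of the gene's TPM in WT replicate 2 of 8 weeks (19.7 of 27.0 TPM), with 6.07 and 3.25 TPM in KO-labelled replicates 2 and 1 of 8 weeks and at most 0.140 TPM in the other 9 libraries.

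Of the receptors for chemokines of skin and inflamed tissue, Ccr4 (ENSMUSG00000047898; chromosome 9, 114490316 to 114504916, minus strand), which reads CCL17 and CCL22, had separate times. It lay at 57.2, 50.8 and 49.9 CPM in KO-labelled and 56.9, 56.3 and 54.3 CPM in WT libraries of 20 weeks. At 8 weeks it lay at 45.8, 46.9 and 41.9 CPM in KO-labelled and 36.1, 37.5 and 42.6 CPM in WT libraries. Every library of 20 weeks was above every library of 8 weeks, with 49.9 CPM as the lowest of 20 weeks and 46.9 CPM as the highest of 8 weeks. The log2 fold change was 0.38 (SE 0.11, unadjusted p = 0.00390), which missed the threshold over all genes in edgeR (adjusted p = 0.0803) and in limma-voom (adjusted p = 0.0701) and passed it in DESeq2 (adjusted p = 0.00847). In edgeR Ccr4 was called once among the 12 fits that leave out a library, without WT replicate 3 of 8 weeks (adjusted p = 0.04997). The change was 0.23 in KO-labelled cells (SE 0.15; edgeR, adjusted p = 0.750) and 0.53 in WT cells (SE 0.15; edgeR, adjusted p = 0.174). Of the 20-base words of the Ccr4 transcript, 6.10% also occur in other genes, the highest share of the 9.

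Ccr8 (ENSMUSG00000042262; chromosome 9, 120092114 to 120094906, plus strand), a receptor of type 2 cells in skin, lay at 122, 106 and 115 CPM in KO-labelled and 125, 103 and 101 CPM in WT libraries of 20 weeks. At 8 weeks it lay at 107, 148 and 99.8 CPM in KO-labelled and 118, 262 and 109 CPM in WT libraries. The single high value was that of WT replicate 2, the library that stood apart. The log2 fold change by time was -0.31 (SE 0.21; edgeR, adjusted p = 0.467), and without WT replicate 2 of 8 weeks it was -0.05 (edgeR, adjusted p = 0.904).

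Cxcr6 (ENSMUSG00000048521; chromosome 9, 123806475 to 123811760, plus strand), the CXCL16 receptor, lay at 1760, 1667 and 1566 CPM in KO-labelled and 1487, 1719 and 1583 CPM in WT libraries of 20 weeks. At 8 weeks it lay at 1254, 1564 and 1245 CPM in KO-labelled and 1574, 1210 and 1698 CPM in WT libraries. KO-labelled libraries of 20 weeks were all above those of 8 weeks, by a narrow margin, and WT libraries overlapped. The log2 fold change by time was 0.20 (SE 0.13; edgeR, adjusted p = 0.454). Cxcr6 overlaps Fyco1, a gene of the opposite strand. Within KO-labelled cells 4 of the 9 members did not overlap between the times, Cd69 and Cxcr4 lower and Ccr4 and Cxcr6 higher at 20 weeks, against 16.5% of all genes. Within WT cells 2 did not, Cd69 and Ccr4, against 19.3%.

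Between genotypes, no member was called. The labels set ILC2s of Rag1-/- marrow against ILC2s of WT marrow in 1 host. The few Rag1 reads lay in KO-labelled libraries alone and cannot be placed inside or outside the deleted part of the gene. In the average over both times edgeR called 0 of 9 members (0.222% of all genes), DESeq2 called 0 (0.528%) and 0 had an unadjusted p under 0.05 (3.71%). At 20 weeks edgeR called 0 of 9 (0.0554% of all genes), DESeq2 0 (0.222%) and the unadjusted count was 0 (2.08%). At 8 weeks the counts were again 0 by edgeR (0.201%), 0 by DESeq2 (0.521%) and 0 for an unadjusted p under 0.05 (3.62%). For the genotype by time interaction they were 0 by edgeR (0.0970%), 0 by DESeq2 (0.243%) and 0 unadjusted (2.18%). Over 6 against 6 libraries 0 members had values that did not overlap (0.346% of all genes). At 20 weeks 1 did not, Cxcr4, lower in KO-labelled cells (11.5%), and at 8 weeks 0 (5.63%).

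The intervals show how large a genotype difference these libraries leave room for. Cd69 averaged 177 ± 118 CPM in KO-labelled and 201 ± 120 CPM in WT libraries over both times (n = 6 each), with a log2 fold change of -0.25 (95% interval -0.66 to 0.16). For S1pr1 the change was -0.03 (-0.28 to 0.23) and for Klf2 0.02 (-0.42 to 0.45). Gpr183 had the largest change in size among the 9, -0.32 (SE 0.17, 95% interval -0.70 to 0.05), with 90.3 ± 21.2 CPM in KO-labelled and 113 ± 12.1 CPM in WT libraries (n = 6 each; edgeR, unadjusted p = 0.0857, adjusted p = 1.00). Ccr7 at 8 weeks came nearest to an unadjusted 0.05, with 22.2 ± 4.12 CPM in KO-labelled and 15.2 ± 3.24 CPM in WT libraries (n = 3 each; log2 fold change 0.55, SE 0.25; edgeR, unadjusted p = 0.0503, adjusted p = 1). At 20 weeks its change was -0.10. The other averaged changes were 0.06 for Ccr4, -0.20 for Ccr8, -0.16 for Cxcr4 and -0.04 for Cxcr6. The 7 contrasts share libraries, so the time and genotype values of a gene are not independent.

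**Figure D4:**
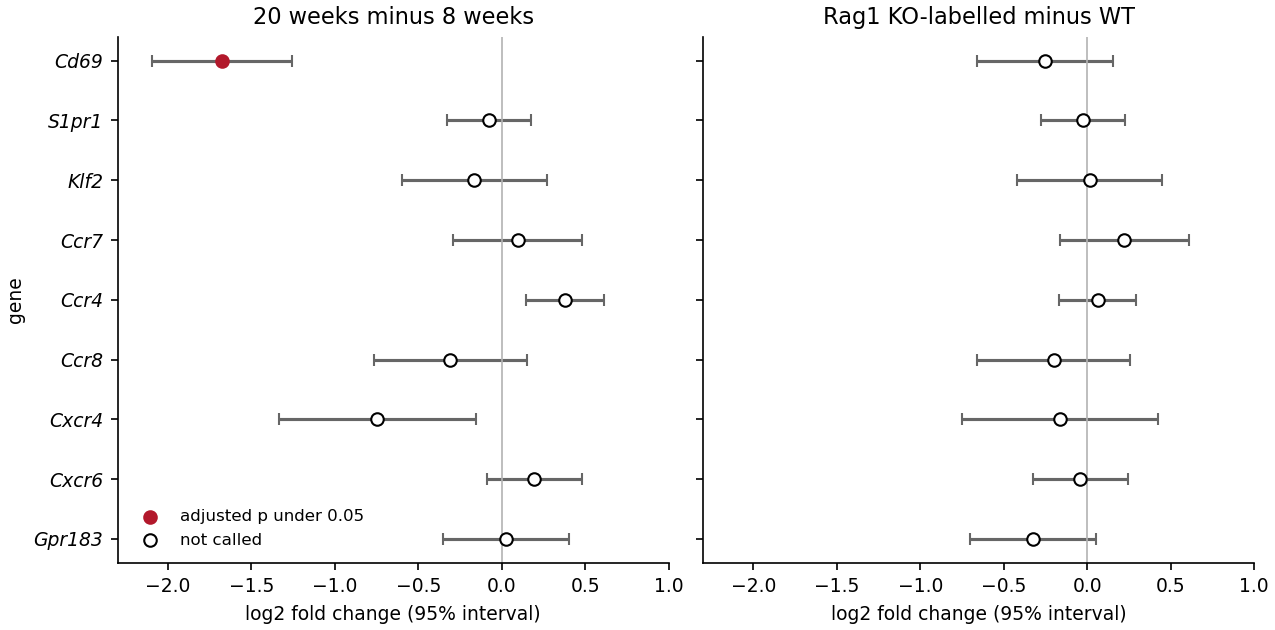
Log2 fold changes of the 9 genes with 95% intervals from the edgeR fit, for 20 over 8 weeks averaged over genotypes (left) and KO-labelled over WT averaged over times (right). Only the time change of Cd69, -1.68, is called, and every genotype interval holds 0.

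Other genes of the same circuits were read from lists chosen with earlier results of these data known. Their counts beside the shares of all genes are therefore descriptions and no test of a list. The list of CD69 inducers and early response genes, the AP-1, EGR and NR4A factors and interferon genes that are induced with Cd69 on activation or drive it, held the most called members. Of its 17 tested genes 8 were lower at 20 weeks and 0 higher, against 1.93% and 0.977% of all genes, and its median log2 fold change was -0.98, against 0.02 over all genes. Fos, an AP-1 subunit, fell to 211 ± 17.7 CPM at 20 weeks, against 934 ± 238 CPM at 8 weeks (n = 6 each; log2 -2.14, SE 0.18; edgeR, adjusted p = 0.000101). The orphan receptor Nr4a1 fell to 21.7 ± 6.39 CPM at 20 weeks, against 181 ± 57.3 CPM at 8 weeks (log2 -3.07, SE 0.27; edgeR, adjusted p = 0.000127). Also lower were Nr4a2 (log2 -4.42), Egr1 (-2.16), the phosphatase gene Dusp1 (-1.96), Fosb (-1.64), the interferon regulator Irf7 (-1.37) and Jun (-1.01). Values of these 8 genes did not overlap between the times, against 4.08% of all genes. As the 8 were picked because they were called by time, this adds no separate support. The nearest libraries of Irf7 were at 75.5 CPM at 20 weeks and 78.7 CPM at 8 weeks, and those of Egr1 at 13.3 and 13.4 CPM. Of the 8, Fos, Fosb, Nr4a1, Nr4a2, Egr1 and Dusp1 were called in all 12 fits that leave out a library. Jun was called in 6, not without WT replicate 1 or any KO-labelled replicate of 20 weeks, nor without WT replicate 1 or KO-labelled replicate 2 of 8 weeks. Irf7 was called in 3, those without KO-labelled replicate 1 or 3 or WT replicate 3 of 8 weeks. Within a genotype, 4 of the list were lower in KO-labelled cells (Fos, Nr4a1, Nr4a2 and Dusp1), against 0.0624% of all genes, and 6 in WT cells (also Fosb and Egr1), against 0.312%. In KO-labelled cells 0 of all genes, and so 0 of these 4, were called by edgeR without KO-labelled replicate 1 or 2 of 20 weeks, without KO-labelled replicate 2 of 8 weeks, or with the thread covariate (756 to 1170 genes at an unadjusted p under 0.05). Junb (-0.85; edgeR, adjusted p = 0.0897), the RNA-binding Zfp36 (-0.98, adjusted p = 0.153), Irf1 (0.36, adjusted p = 0.318) and the interferon receptor chain Ifnar2 (0.67, adjusted p = 0.0580) were not called. Lower Cd69 and lower early response genes stood together in the libraries of 20 weeks, and whether they are linked was not tested.

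The list of the KLF and FOXO circuit, to which Klf2 belongs, had 2 of 20 tested genes lower at 20 weeks and 0 higher (median -0.12), against 1.93% and 0.977% of all genes. Klf6 fell to 253 ± 14.1 CPM at 20 weeks, against 469 ± 102 CPM at 8 weeks (log2 -0.88; edgeR, adjusted p = 0.0160), and Klf4 to 10.5 ± 1.43 CPM, against 25.2 ± 12.5 CPM (-1.20; edgeR, adjusted p = 0.0340). With a library left out, Klf6 was called in 9 of 12 fits (not without KO-labelled replicate 2 or 3 of 20 weeks or WT replicate 1 of 8 weeks) and Klf4 in 2, those without WT replicate 3 or KO-labelled replicate 3 of 8 weeks. Klf13 (-1.04, adjusted p = 0.155), Foxo3 (-1.11, adjusted p = 0.120) and Il7r, the IL-7 receptor chain (0.60, adjusted p = 0.0791), did not pass in edgeR. Among genes of the S1P system beside S1pr1, edgeR called 0 of 11 tested by time (2.90% of all genes) and DESeq2 0 (8.52%). At an unadjusted p under 0.05 there were 2 (18.6%). These were the S1P phosphatase gene Sgpp1, at 8.37 ± 1.91 CPM at 20 weeks and 4.27 ± 2.37 CPM at 8 weeks (log2 0.95; edgeR, adjusted p = 0.161), and the receptor gene S1pr3, which did not exceed 1.95 CPM at 20 weeks and 0.361 CPM at 8 weeks (edgeR, adjusted p = 0.131). S1pr4, the other abundant S1P receptor here, lay at 135 ± 25.7 CPM at 20 weeks and 144 ± 36.1 CPM at 8 weeks, and the S1P lyase gene Sgpl1 at 23.4 ± 4.35 CPM at 20 weeks and 21.9 ± 5.20 CPM at 8 weeks (n = 6 each).

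Of 14 other chemokine receptors tested, 1 was higher and 1 lower at 20 weeks, against 0.977% and 1.93% of all genes. Ccr9, the gut-homing receptor, averaged 27.5 ± 11.3 CPM at 20 weeks and 14.8 ± 3.04 CPM at 8 weeks (log2 0.84, SE 0.19; edgeR, adjusted p = 0.0388). Ccrl2, a receptor that binds chemerin without signalling, averaged 9.57 ± 2.91 CPM at 20 weeks and 18.5 ± 3.41 CPM at 8 weeks (log2 -0.96, SE 0.22; edgeR, adjusted p = 0.0386). Both calls were lost in most fits that leave out a library. Ccr9 was called in 3 of 12, those without KO-labelled replicate 1 of 20 weeks or KO-labelled or WT replicate 3 of 8 weeks. Ccrl2 was called in 4 of 12, those without WT replicate 3 of 20 weeks, KO-labelled replicate 3 of 8 weeks or WT replicate 2 or 3 of 8 weeks. Ccr2, the most abundant of them, lay at 660 ± 94.1 CPM at 20 weeks and 428 ± 115 CPM at 8 weeks, short of the threshold (0.64; edgeR, adjusted p = 0.0544). Ccr1 (0.58, adjusted p = 0.211) and Cx3cr1 (0.69, adjusted p = 0.210) were not called in edgeR. A further list held ligands of the chemokine and oxysterol receptors among the 9 genes, with enzymes that make or break down oxysterols. By time, edgeR called 0 of its 8 tested genes (2.90% of all genes) and DESeq2 1 (8.52%), and 1 had an unadjusted p under 0.05 (18.6%). In both it was Ccl22, which encodes a CCR4 ligand and did not exceed 0.892 CPM at 20 weeks or 0.985 CPM at 8 weeks, with libraries at 0 in both (edgeR, adjusted p = 0.0995 by time and 0.420 between genotypes at 20 weeks). Hsd3b7, an enzyme of oxysterol breakdown, lay at 7.09 ± 1.76 CPM at 20 weeks and 9.65 ± 1.69 CPM at 8 weeks (-0.44; edgeR, adjusted p = 0.290). Ccl17, which encodes the other CCR4 ligand, lay at 2.47 ± 0.621 CPM at 20 weeks and 1.82 ± 0.960 CPM at 8 weeks. Ccl1, which encodes a CCR8 ligand, lay at 2.35 ± 1.59 CPM at 20 weeks and 1.76 ± 0.985 CPM at 8 weeks.

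Adhesion genes had 1 of 10 tested higher at 20 weeks and 0 lower, against 0.977% and 1.93% of all genes. The hyaluronan receptor gene Cd44 averaged 201 ± 32.1 CPM at 20 weeks and 115 ± 33.3 CPM at 8 weeks (log2 0.81, SE 0.20; edgeR, adjusted p = 0.0470). Cd44 was called in 2 of 12 fits that leave out a library, those without KO-labelled replicate 1 or WT replicate 3 of 8 weeks, with adjusted p up to 0.129. On the same list Itgae, which encodes the integrin chain CD103, was called lower in KO-labelled cells (averaged log2 -1.22, SE 0.19; edgeR, adjusted p = 0.0158), as far as the labels hold. It was the 1 gene of all these lists called by genotype, against 0.222% of all genes called in either direction (0.201% at 8 weeks). Its change was -1.59 at 8 weeks (edgeR, adjusted p = 0.0326) and -0.85 at 20 weeks (edgeR, adjusted p = 1). Without any 1 of KO-labelled replicates 1 and 2 of 20 weeks, WT replicate 3 of 20 weeks and KO-labelled replicate 1 of 8 weeks, the averaged change of Itgae was -1.26, -1.14, -1.17 and -1.18 and was not called. The integrin and selectin-ligand genes Itgb2 (-0.20) and Selplg (0.32) were not called by time (edgeR, adjusted p = 0.385 and 0.554), nor were the integrin chain genes Itgb1 (-0.13) and Itgb7 (-0.31; edgeR, adjusted p = 0.589 and 0.333). Of 19 tested genes of receptor desensitisation and G protein signalling, Rgs2 alone was called, lower at 20 weeks, against 1.93% of all genes (log2 -1.29, SE 0.14; edgeR, adjusted p = 0.000740). Rgs1, which blunts S1P and chemokine signals in lymphocytes, lay at 601 ± 152 CPM at 20 weeks and 785 ± 301 CPM at 8 weeks (-0.40; edgeR, adjusted p = 0.422). Of the same family Rgs10 (0.59), Rgs19 (-0.08) and Rgs16, which did not exceed 3.05 CPM, were not called (edgeR, adjusted p = 0.101, 0.828 and 0.120).

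**Figure D5:**
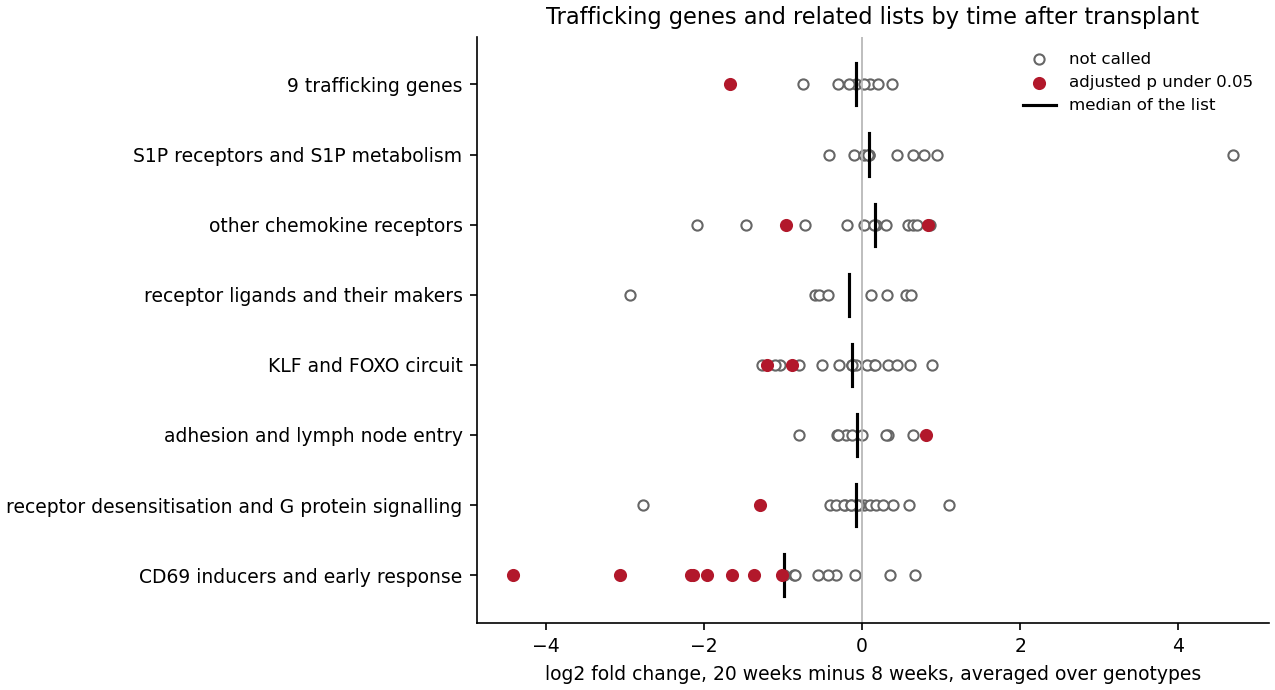
Log2 fold change of 20 over 8 weeks, averaged over genotypes, for the 9 trafficking genes and 7 related lists, with 1 point a tested gene (filled where edgeR's adjusted p is under 0.05) and a bar at each list's median. The early response list holds 8 filled points and a median of -0.98, while the S1P genes and the receptor ligands hold none.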

How the data were processed

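RNA was sequenced in 12 libraries, 3 in each of 4 groups taken from the sample labels. For the later time, the series text and the sample labels differ, and the labels' 20 weeks are given. The RNA is labelled as polyadenylated, whereas the protocol describes ribosomal RNA removal and random primers, and strand is not stated. Per the file headers, sailfish 0.6.3 made the deposited estimated count of each transcript from 20-base words against Ensembl release 76. The deposited TPM of each transcript, per the file headers, comes from the same run. The submitters' processing notes list STAR 2.0.4b and featureCounts 1.4.5 but not sailfish.

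Of 86127 transcripts in each file, 83739 (97.2%) had a gene in GENCODE M21 (GRCm38), which gave sums for 29542 genes, and the rest held 1.00% to 1.54% of a library's reads. Counts were rounded, filtered with filterByExpr to 14431 genes, scaled by TMM and fitted with the quasi-likelihood test of edgeR 4.0.16 (R 4.3.3) on 4 group means and 7 contrasts. P-values were adjusted over all tested genes by Benjamini-Hochberg, and 0.05 was the threshold. Estimated reads per library ran from 11433625 to 32529806, and the common biological coefficient of variation was 0.377. Log2 CPM used a pseudocount of 0.5. Ratios and correlations were tested by exact permutation (scipy 1.17.1). The correlations had been planned over all 12 libraries, but were taken within each time because Cd69 separates the times.

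Alternatives were DESeq2 1.42.0, limma-voom 3.58.1, DESeq2 size factors, other filters, counts rebuilt from TPM, the thread number as a covariate, libraries of 8 threads alone, a replicate block, and leaving out each library or both that stood apart. The ratios and their alternatives were chosen after seeing the data. The members and lists were chosen with earlier results of these data known. Named on each list of related genes were the called genes, the 2 of highest TPM and the 2 of smallest p in an average, and on the marker lists only some of these. Genes most like a member were the 3 of highest Pearson r. Other genes named were chosen after their values were seen.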

Additional observations from a re-analysis of the deposited data

How the results depend on the processing

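The time change of Cd69 averaged over genotypes was called in all 21 alternatives run, with log2 fold changes of -1.87 to -1.57 and adjusted p of at most 0.00759. The number of the 9 members called in that average was 2 under DESeq2 and 1 to 2 when a library was left out, the added gene being Ccr4 each time. For time in KO-labelled cells the number was 0 with counts rebuilt from TPM, 0 with the thread number as a covariate, 0 with the replicate block and 0 to 1 when a library was left out. For time in WT cells it was 2 under DESeq2 (Cd69 and Ccr4), 0 with the replicate block, 0 among libraries of 8 threads and 0 to 1 when a library was left out. Cd69 kept its direction in all of these fits but passed in 10 of 21 alternatives for KO-labelled and 15 of 22 for WT cells. In no alternative did a called value change its sign. For the 4 genotype contrasts 0 of 819 alternative fits of a member were called, 42 had the other sign and 17 an unadjusted p under 0.05. Of 576 time fits 49 were called, for Cd69 and Ccr4 alone.

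Counts over all tested genes moved more. For time averaged, 419 genes were called by edgeR, 1227 by DESeq2, 983 without both libraries that stood apart, 75 with the thread covariate and 77 to 927 when a library was left out. For time in KO-labelled cells the count was 9 by edgeR, 150 by DESeq2, 59 without both libraries, 7 with counts rebuilt from TPM, 0 with the thread covariate and 0 to 26 when a library was left out. For time in WT cells it was 74 by edgeR, 498 by DESeq2, 156 without both libraries, 0 among libraries of 8 threads and 29 to 302 when a library was left out. The genotype counts of 32 averaged, 8 at 20 weeks, 29 at 8 weeks and 14 for the interaction became 76, 32, 75 and 35 by DESeq2, and 44, 20, 38 and 27 without both libraries. The genotype counts fitted on the libraries of 1 time were 17 at 20 weeks and 8 at 8 weeks. Each share of called genes printed beside a member count moves with these.

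Same-numbered KO-labelled and WT libraries correlated in their deviations at 0.07, 0.11 and 0.14 at 20 weeks and 0.29, 0.20 and 0.09 at 8 weeks. As not every pair exceeded 0.1, a cutoff set by hand, the main fits take the numbers as names. Each library nevertheless correlated best with its own number, and the labels do not say whether equal numbers share a host. If they do, the libraries of a time are not independent, and the main fits leave out that pairing. With the replicate block, Cd69 in KO-labelled cells had an adjusted p of 0.0960 and in WT cells 0.0645 (edgeR), and 332 genes were called for time averaged, 5 in KO-labelled cells and 49 in WT cells. With the block set within each time, 19 genes were called for genotype averaged, 4 at 20 weeks and 15 at 8 weeks. With 6 libraries a time, the 95% intervals of S1pr1 and Klf2 bound the change these data leave room for. Reads that the estimate divides between transcripts with shared words bear on Ccr4 and on the 2 Cxcr4 transcripts.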
